A study of Mus musculus with 12 samples.

Results

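The genes described are 36 genes of the DNA replication machinery, chosen by gene symbol for their known roles. The rule itself uses no measured value, but the set was chosen with earlier results of these data known. They were looked up in a table of 28977 mouse gene IDs, and all 36 were found. All of them reached 1 FPKM (fragments counted for a gene, scaled by its length and by the depth of the library) in at least 3 of the 12 libraries, the minimum that left 12026 genes to be tested. The libraries were mRNA sequencing libraries of J774A.1, an established mouse macrophage-like line that grows in culture, so they describe 1 transformed line and not macrophages of a tissue. Cells were exposed for 1 h to hypochlorous acid (HOCl), the oxidant made by the neutrophil enzyme myeloperoxidase, and were then kept for 24 h in full medium before collection. There were 3 libraries in each of 4 groups. HOCl was given in the salt solution HBSS at 0 µM (called HBSS here), 20 µM and 100 µM, and a further group received cell media in place of HBSS for that 1 h. All groups shared the same line and the same 24 h in full medium, and no genotype differed between them. The labels do not say that replicates were separate cultures, and the p-values therefore speak of the spread among these 12 libraries, which may be technical.

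A cell copies its DNA in ordered steps. The origin recognition complex marks the start sites, Cdc6 and Cdt1 load the ring-shaped MCM helicase onto DNA, and Cdc45 and the GINS proteins turn the loaded ring into an active helicase. DNA polymerase alpha with its primase starts each new strand, and polymerases delta and epsilon extend the strands while held by the sliding clamp PCNA, which the RFC complex opens and closes. RPA coats single-stranded DNA, Fen1 and Lig1 finish and join the fragments of the lagging strand, and Rrm1, Rrm2, Tyms and Tk1 make the nucleotides. Many of these genes are transcribed together as cells enter S phase, under the E2F transcription factors, and dividing macrophage lines express them. In bulk RNA, fewer cells in S phase and less RNA per cell cannot be told apart.

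The promoter windows of the members are shown for what they share in sequence, which the choice of genes did not use. RefSeq windows of the GRCm38.p6 build, from 250 bases before to 50 bases after the annotated start, were given for 29 of the 36 genes. They were searched on both strands for the E2F motif, written as TTTCCCGC, TTTCGCGC, TTTGCCGC or TTTGGCGC. At least 1 match was found in 12 of the 29 genes (41.38%), against 2.605% of 27025 genes with such windows. The 12 were Cdc6, Cdt1, Gins3, Lig1, Mcm3, Mcm5, Mcm6, Mcm7, Orc1, Pola1, Pold1 and Rfc3. The CCAAT box was found in 65.52% of the 29 and in 41.06% of all genes. The motif TTTGAA, known as the CHR of genes used in late cell cycle, was found in 13.79% of the 29 and in 20.23% of all. A match describes the letters of the window and not a bound site. Windows are given below for Mcm5, Mcm7 and Rfc3, which hold the motif and whose 100 µM libraries all lay above HBSS, for Orc1, which holds it and lay above cell media in every HBSS library, and for Pcna, the most abundant member, whose window has no match. Letters that match the E2F motif are in capitals, and where matches on the 2 strands overlap the capitals run on. The windows lie at chr8:75109259-75109558 on the plus strand (Mcm5), chr5:138171834-138172133 on the minus strand (Mcm7), chr5:151651159-151651458 on the minus strand (Rfc3), chr4:108579204-108579503 on the plus strand (Orc1) and chr2:132253131-132253430 on the minus strand (Pcna), and each is written in the direction of its gene. Mcm7 has another window, at chr5:138171217-138171516 on the minus strand, which holds no match and is not shown.
Mcm5: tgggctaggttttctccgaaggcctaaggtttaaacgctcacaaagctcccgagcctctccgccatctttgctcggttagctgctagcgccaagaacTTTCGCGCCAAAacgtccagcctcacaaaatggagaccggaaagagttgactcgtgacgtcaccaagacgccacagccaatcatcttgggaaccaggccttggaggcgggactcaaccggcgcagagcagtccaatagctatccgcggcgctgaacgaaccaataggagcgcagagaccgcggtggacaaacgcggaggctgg
Mcm7: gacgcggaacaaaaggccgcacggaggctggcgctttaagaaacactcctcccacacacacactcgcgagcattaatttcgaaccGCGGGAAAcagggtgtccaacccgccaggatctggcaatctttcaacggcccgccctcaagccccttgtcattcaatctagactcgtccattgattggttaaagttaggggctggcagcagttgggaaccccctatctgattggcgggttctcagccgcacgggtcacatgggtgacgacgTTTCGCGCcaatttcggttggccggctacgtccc
Rfc3: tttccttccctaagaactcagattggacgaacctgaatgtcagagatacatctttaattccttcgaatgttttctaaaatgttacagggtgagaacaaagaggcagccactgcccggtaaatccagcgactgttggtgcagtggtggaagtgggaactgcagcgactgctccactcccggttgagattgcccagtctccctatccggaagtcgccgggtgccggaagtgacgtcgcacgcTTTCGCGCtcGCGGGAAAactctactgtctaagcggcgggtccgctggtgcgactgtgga
Orc1: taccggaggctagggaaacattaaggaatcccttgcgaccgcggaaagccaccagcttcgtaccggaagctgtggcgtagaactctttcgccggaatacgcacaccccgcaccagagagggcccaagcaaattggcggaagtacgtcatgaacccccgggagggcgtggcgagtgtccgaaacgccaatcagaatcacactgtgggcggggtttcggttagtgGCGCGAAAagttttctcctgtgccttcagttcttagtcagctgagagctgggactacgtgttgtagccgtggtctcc
Pcna: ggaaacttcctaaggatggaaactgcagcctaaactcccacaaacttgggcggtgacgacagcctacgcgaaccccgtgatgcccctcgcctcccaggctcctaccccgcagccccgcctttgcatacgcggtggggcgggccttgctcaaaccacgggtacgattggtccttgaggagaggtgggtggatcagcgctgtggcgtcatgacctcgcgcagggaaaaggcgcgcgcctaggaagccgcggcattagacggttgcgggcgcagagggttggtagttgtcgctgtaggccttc

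The replication genes were well expressed in this line, with mean levels over the 12 libraries between 4.53 and 226 FPKM and a median of 21.4 FPKM, against 7.32 FPKM for all genes tested. The values of single libraries rested on 128 to 11974 reads for a member, as recovered from the table, out of 17683937 to 21408518 reads per library. Pcna was the most abundant, followed by Mcm3, Rrm2, Mcm6, Mcm5 and Mcm2, and Fen1 and Gins3 were the lowest. The median exon length of the members was 4182.5 bases and their median GC content 48.8%, against 3795 bases and 49.3% for all genes tested. The label of macrophage held against its markers: all 11 macrophage markers reached 1 FPKM in every library, and all detected markers of fibroblasts, epithelium, T cells, B cells, endothelium and erythroid cells were below 1. Of the 3 neutrophil markers, S100a8 stood at 9.71 to 19.1 FPKM while Ly6g and Elane were below 1.

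Some libraries stood apart before any comparison. In cell media replicates 1 and 2, transcripts of cytosolic ribosomal proteins made up 12.9% and 12.8% of all FPKM, against 7.61% to 8.53% in the other 10 libraries. Results are therefore also given on 10 libraries, without these 2, a choice made with earlier results known. The labels name 2 sequencing instruments but do not assign libraries to them, and any part of the instrument was therefore not tested. HBSS replicate 1 was the lowest of the HBSS libraries for 36 of 36 members, against 41.3% of all genes tested. HOCl 20 µM replicate 1 was the lowest of its group for 34 members (39.1% of all genes) and HOCl 100 µM replicate 1 for 26 (34.1%). The map of all members by library shows these low libraries.

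**Figure D1:**
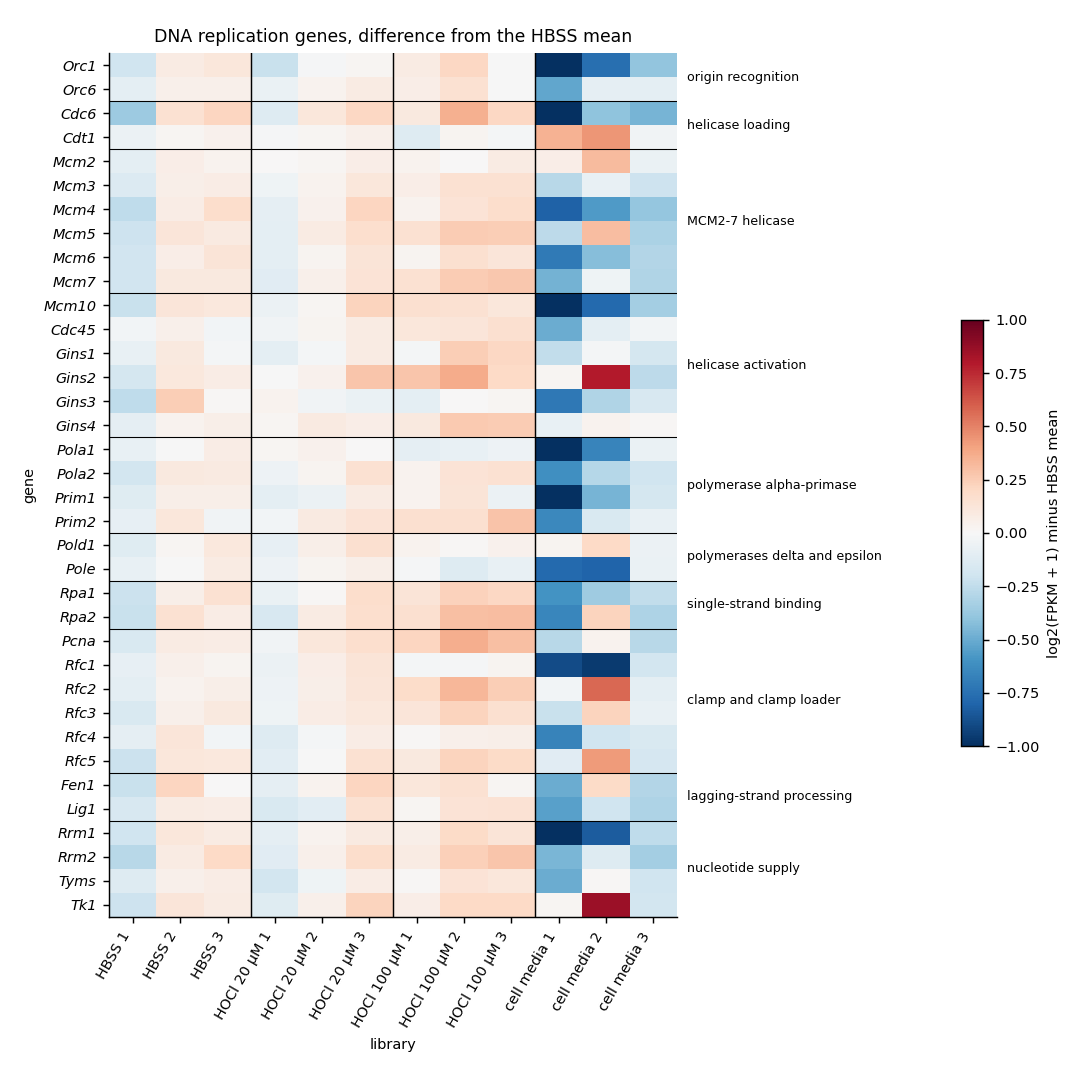
Each row is a DNA replication gene, ordered by role, and each column a library. The colour is log2(FPKM + 1) minus the mean of the 3 HBSS libraries, and values beyond 1 or -1 take the colour at the end of the scale. HBSS replicate 1 is low for all 36 genes, the HOCl 100 µM libraries are mostly high, and cell media replicates 1 and 2 differ from gene to gene more than any other library.

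Exposure to 100 µM HOCl was compared with HBSS alone to see whether replication genes differed 24 h after the oxidant. Most members stood somewhat higher at 100 µM: 31 of 36 had a higher mean, against 48.5% of all genes tested, and the median log2 difference was 0.12, which is 9.02% on the scale of FPKM + 1. The median of all genes tested was -0.01. No member passed the test (limma, Benjamini-Hochberg adjusted p under 0.05 over 12026 genes), and of all genes tested 0% passed. The smallest adjusted p among the members was 0.625. The replicate number was not part of this model. With it as a block on 12 libraries, 0 members and 0 genes passed. The counts with the block on 10 libraries were higher and are given in the last section. At an unadjusted p under 0.05, 2 members and 7.76% of all genes passed. On 10 libraries, 0 members passed at a smallest adjusted p of 0.0666, 29 genes (0.241%) passed over all, and 9 members reached an unadjusted p under 0.05, all higher, against 14.9% of all genes in that direction. The 3 libraries at 100 µM all lay above the 3 of HBSS for 10 members, or 27.8%, against 16.5% of all genes, and all below for 0 members, against 17.6%. Without HBSS replicate 1 the members' median was 0.03 with 24 of 36 higher, and 10 members lay wholly above and 3 wholly below, against 20.1% and 22.9% of all genes. HOCl 100 µM replicate 1, the lowest of its own group for 26 members, stayed in that comparison. Set against the HBSS library of the same number, replicates 1, 2 and 3 had member medians of 0.23, 0.08 and 0.06. Of 36 members, 34, 28 and 25 were higher, and the medians over all genes were 0.01, -0.01 and -0.02. The data did not settle whether the numbers pair the libraries.

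**Figure D2:**
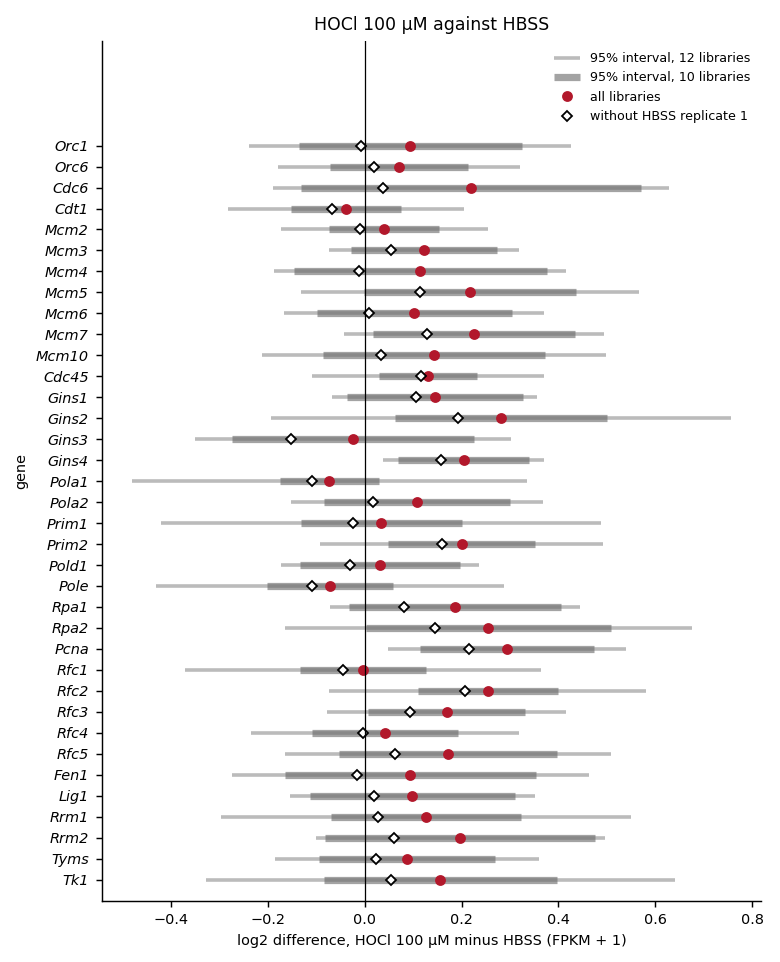
Points give the log2 difference of each gene, HOCl 100 µM minus HBSS, on the scale of FPKM + 1, and bars its 95% interval from limma with 12 libraries (light) and with 10 (dark). Open diamonds are the difference without HBSS replicate 1. They lie to the left of the points for all 36 genes, and 24 of 36 remain above 0.

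The genes that mark origins and load the helicase had overlapping levels at 100 µM and in HBSS. Orc1, the largest subunit of the origin recognition complex, was at 7.82, 8.65 and 7.33 FPKM at 100 µM, against 6.27, 7.87 and 8.06 FPKM in HBSS. Orc6, its smallest subunit, was at 25.8, 27.3 and 24.4 FPKM at 100 µM, against 22.8, 25.4 and 25.4 FPKM in HBSS. For Orc1 the 100 µM libraries spread over the upper part of the HBSS range and beyond it, and for Orc6 1 of the 3 lay under 2 HBSS libraries. Cdc6, the ATPase that loads the MCM ring, was at 9.83, 11.99 and 10.7 FPKM at 100 µM, against 6.87, 10.3 and 10.7 FPKM in HBSS. Only HBSS replicate 1 was low for Cdc6, and the log2 difference of 0.22 came to 0.04 without it. Cdt1, the partner of Cdc6 in loading, was at 34.6, 38.6 and 37.4 FPKM at 100 µM, against 36.3, 38.3 and 39.0 FPKM in HBSS. Its log2 difference of -0.04 was close to 0 and came to 0.01 without HOCl 100 µM replicate 1.

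All 6 subunits of the MCM helicase had a higher mean at 100 µM, with log2 differences between 0.04 and 0.23 and a median of 0.12, though the sign turned for Mcm2 (-0.01) and Mcm4 (-0.01) without HBSS replicate 1 and for Mcm2 (-0.03) and Mcm6 (-0.03) with quantile normalization. Mcm7 was at 39.3, 42.3 and 42.8 FPKM at 100 µM, against 30.7, 37.7 and 37.8 FPKM in HBSS, a log2 difference of 0.23 ± 0.12 (SE; limma adjusted p = 0.660). Mcm5 was at 95.7, 103 and 102 FPKM at 100 µM, against 74.4, 93.6 and 91.5 FPKM in HBSS, a log2 difference of 0.22 ± 0.16 (SE; limma adjusted p = 0.686). For these 2 subunits the groups did not overlap, though the gap between the lowest library at 100 µM and the highest of HBSS was small. Mcm3 was at 110, 116 and 117 FPKM at 100 µM, against 95.3, 109 and 111 FPKM in HBSS. Mcm2 was at 59.7, 58.3 and 61.4 FPKM at 100 µM, against 54.1, 60.9 and 59.6 FPKM in HBSS. Mcm2 overlapped throughout and differed least of the 6. Without HBSS replicate 1 the median of the 6 was 0.03, and the difference of Mcm7 was 0.13 and that of Mcm5 0.11.

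Among the proteins that activate the helicase, the 100 µM libraries all lay above HBSS for 3 of 6. Of all genes tested, 16.5% lay wholly above HBSS and 17.6% wholly below. Gins2, a subunit of the GINS complex, was at 8.69, 9.34 and 8.22 FPKM at 100 µM, against 6.09, 7.60 and 7.44 FPKM in HBSS, a log2 difference of 0.28 ± 0.22 (SE; limma adjusted p = 0.686). Gins4, another subunit, was at 36.6, 41.3 and 40.8 FPKM at 100 µM, against 32.0, 35.1 and 35.5 FPKM in HBSS, a log2 difference of 0.20 ± 0.08 (SE; limma adjusted p = 0.625). Cdc45, the partner of MCM and GINS in the active helicase, was at 17.7, 17.8 and 18.3 FPKM at 100 µM, against 16.0, 17.0 and 16.0 FPKM in HBSS. Its 3 libraries at 100 µM agreed closely, and the log2 difference was 0.13, or 0.12 without HBSS replicate 1. The other members of this role overlapped: Gins1 was at 37.7, 45.4 and 44.2 FPKM at 100 µM, against 36.1, 40.9 and 37.6 FPKM in HBSS. Mcm10, which helps to start unwinding, was at 13.9, 13.8 and 13.4 FPKM at 100 µM, against 10.4, 13.4 and 13.3 FPKM in HBSS. The mean of Gins3 was 5.14 ± 0.27 FPKM at 100 µM and 5.30 ± 1.08 FPKM in HBSS (SD, n = 3 each), the only one of the 6 with a lower mean.

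The polymerases held 2 of the 5 members with a lower mean at 100 µM. Pola1, the catalytic subunit of polymerase alpha, was at 12.2, 12.3 and 12.5 FPKM at 100 µM, against 12.3, 13.0 and 13.7 FPKM in HBSS, a log2 difference of -0.07 ± 0.19 (SE; limma adjusted p = 0.872). Pole, the catalytic subunit of polymerase epsilon, was at 6.94, 6.29 and 6.60 FPKM at 100 µM, against 6.58, 6.96 and 7.46 FPKM in HBSS. Its log2 difference was -0.07 ± 0.16 (SE), with a limma adjusted p of 0.858. Both are among the longer genes, and with each library's trend on exon length removed their differences turned to 0.04 for Pola1 and 0.08 for Pole. Pold1, the catalytic subunit of polymerase delta, was at 23.4, 23.0 and 23.6 FPKM at 100 µM, against 20.8, 23.2 and 24.6 FPKM in HBSS. Prim1, the catalytic subunit of the primase, was at 17.2, 18.4 and 16.0 FPKM at 100 µM, against 15.3, 17.5 and 17.5 FPKM in HBSS. Neither differed beyond the spread of its HBSS libraries. Prim2, the other primase subunit, averaged 14.5 ± 0.77 FPKM at 100 µM and 12.5 ± 0.95 FPKM in HBSS (SD, n = 3 each), with groups that did not overlap.

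Differences at the sliding clamp and its loader were among the larger ones. Pcna, the clamp itself, was at 251, 279 and 266 FPKM at 100 µM, against 194, 228 and 228 FPKM in HBSS. Every library at 100 µM lay above every HBSS library, and the log2 difference was 0.29 ± 0.11 (SE), the largest of the 36 as scaled here, with a limma adjusted p of 0.625 on 12 libraries and 0.0734 on 10. With quantile normalization the difference of Pcna was 0.17, below those of Gins2, Rfc2, Rpa2, Cdc6, Prim2 and Rfc3, and with the trend on exon length removed it was 0.25, below those of Rfc2, Gins2, Rrm1, Cdc6, Prim2 and Mcm7. A pseudogene copy, Pcna-ps2, was listed at 4.96 to 17.6 FPKM, so some reads of Pcna may be counted there and its level is less certain. Rfc2, a subunit of the clamp loader, was at 13.7, 15.3 and 14.4 FPKM at 100 µM, against 11.1, 12.3 and 12.5 FPKM in HBSS. Its log2 difference was 0.25 ± 0.15 (SE), with a limma adjusted p of 0.666 on 12 libraries and 0.0666 on 10. Rfc3 was at 10.9, 11.71 and 11.2 FPKM at 100 µM, against 8.81, 10.3 and 10.7 FPKM in HBSS, again without overlap, by a gap of under 1 FPKM. Rfc4 was at 34.0, 35.0 and 35.2 FPKM at 100 µM, against 31.6, 36.7 and 33.0 FPKM in HBSS. The subunits of the loader thus differed among themselves, and Rfc1, the largest, averaged 17.3 ± 0.30 FPKM at 100 µM and 17.3 ± 0.90 FPKM in HBSS (SD, n = 3 each).

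**Figure D3:**
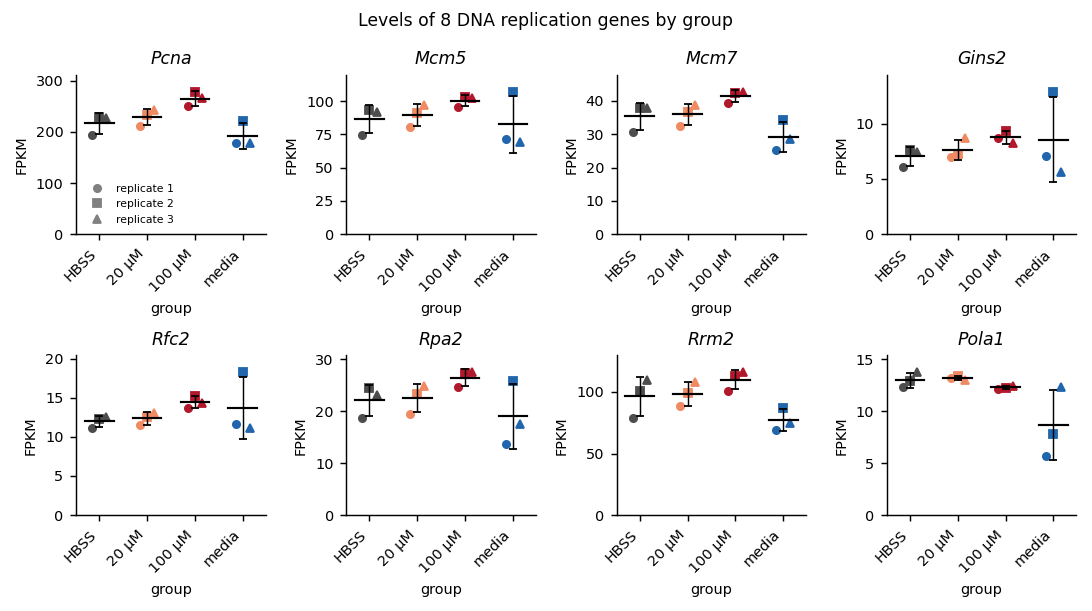
FPKM of 8 replication genes in each library of the 4 groups, with HBSS, HOCl 20 µM and HOCl 100 µM in order of dose and cell media at the right. Horizontal lines are means and bars the SD of 3 libraries; the marker shape gives the replicate number. Pcna, Mcm5, Mcm7, Gins2, Rfc2 and Rpa2 lie higher in every 100 µM library than in every HBSS library, Rrm2 and Pola1 overlap, and the cell media libraries are spread widely for Gins2, Rfc2, Rpa2 and Pola1.

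Genes for coating, joining and nucleotide supply had higher means at 100 µM with overlapping groups, except Rpa2. Rpa2, the middle subunit of the single-strand binding complex RPA, was at 24.6, 27.3 and 27.5 FPKM at 100 µM, against 18.7, 24.5 and 23.1 FPKM in HBSS. Its log2 difference of 0.26 ± 0.19 (SE), with a limma adjusted p of 0.686, came to 0.15 without HBSS replicate 1. The lowest 100 µM library lay only just above the highest HBSS library. Fen1, the nuclease that trims the ends of lagging-strand fragments, was at 4.96, 5.12 and 4.604 FPKM at 100 µM, against 3.74, 5.42 and 4.52 FPKM in HBSS. Lig1, the ligase that joins them, was at 39.1, 42.7 and 42.8 FPKM at 100 µM, against 34.5, 41.0 and 40.9 FPKM in HBSS. For both genes HBSS replicate 1 alone lay well below the rest. Rrm2, the small subunit of ribonucleotide reductase, was at 101, 113 and 116 FPKM at 100 µM, against 78.8, 101 and 110 FPKM in HBSS. Its log2 difference of 0.20 came to 0.06 without HBSS replicate 1. Rrm1, the large subunit, was at 35.3, 38.7 and 37.0 FPKM at 100 µM, against 29.3, 36.7 and 35.8 FPKM in HBSS. Tyms, which makes thymidylate, was at 6.32, 6.97 and 6.83 FPKM at 100 µM, against 5.64, 6.50 and 6.65 FPKM in HBSS. Tk1, which salvages thymidine, was at 19.3, 21.2 and 21.1 FPKM at 100 µM, against 15.7, 20.0 and 19.4 FPKM in HBSS. All 4 genes of nucleotide supply showed the same order, with replicate 1 the lowest in both groups.

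Over the 36 genes, the 95% intervals of the difference at 100 µM reached from -0.48 to 0.76 with 12 libraries and from -0.27 to 0.57 with 10, from the lowest bound of any gene to the highest of any, and single genes had narrower ones. The intervals of Gins4 (0.04 to 0.37) and Pcna (0.05 to 0.54) on 12 libraries did not reach 0, before adjustment over all genes. Members with an E2F match in their window had a median log2 difference of 0.10 (n = 12) and those without one 0.13 (n = 17). The 18 members with the longer exons had a median of 0.12 and the 18 shorter ones 0.13, while over all genes tested the longer ones had a median of -0.08 and the shorter ones 0.07. Exons of 9 members overlap those of a gene on the opposite strand with a mean of at least 1 FPKM. They are Cdc45, Fen1, Gins2, Mcm7, Orc6, Rfc2, Rfc4, Rfc5 and Tk1, and since the sources used here do not say whether strand was used in counting, reads of the 2 genes cannot be told apart there.

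At 20 µM HOCl the replication genes stood close to HBSS. The mean was higher in 29 of 36 members, against 53.9% of all genes, with a median log2 difference of 0.03, or 2.26% on the scale of FPKM + 1. The median over all genes was 0.01. The range ran from -0.07 for Orc1 to 0.10 for Gins2. No member passed the limma test on 12 or on 10 libraries and none reached an unadjusted p under 0.05, while 0% of all genes passed on either set and 1.08% of genes on 12 libraries had an unadjusted p under 0.05. For no member did the groups separate, against 4.21% of all genes higher and 3.48% lower. The direction rested on single libraries. Without HBSS replicate 1 the median was -0.05 with 6 of 36 members higher, and without HOCl 20 µM replicate 3 it was -0.01. The 95% intervals of the members reached from -0.48 to 0.58, so these data do not show that 20 µM left the genes as they were.

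The 20 µM libraries differed among themselves by more than their median differed from HBSS. Pcna was at 211, 234 and 242 FPKM at 20 µM, against 194, 228 and 228 FPKM in HBSS. Gins2 was at 6.98, 7.24 and 8.69 FPKM at 20 µM, against 6.09, 7.60 and 7.44 FPKM in HBSS. Orc1 was at 6.17, 7.29 and 7.47 FPKM at 20 µM, against 6.27, 7.87 and 8.06 FPKM in HBSS. Replicate 1 was low in both groups for all 3 genes, and the ranges overlapped. The difference of Orc1 turned to 0.003 without HOCl 20 µM replicate 1. Over the members, the median deviation from the HBSS mean was -0.07, 0.04 and 0.13 in the 3 libraries at 20 µM and -0.16, 0.08 and 0.08 in those of HBSS. Summed over the 36 genes, the level was 1187, 1291 and 1373 FPKM at 20 µM, against 1112, 1320 and 1326 FPKM in HBSS.

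**Figure D4:**
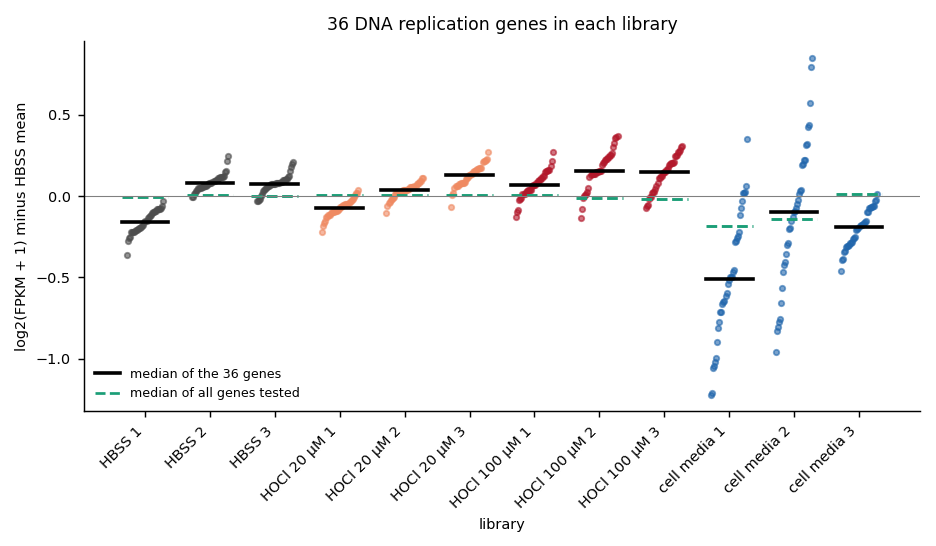
Each point is a replication gene in a library, as log2(FPKM + 1) minus the mean of HBSS, with genes sorted by value within a library. Solid lines are the median of the 36 genes and dashed lines the median of all genes tested. In HBSS and at 20 µM replicate 1 lies below 0, at 100 µM all 3 medians lie above 0, and in cell media all 3 lie below 0.

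The 2 doses were set against each other to see whether the genes differed with dose. The mean was higher at 100 µM than at 20 µM in 30 of 36 members, against 46.2% of all genes, with a median log2 difference of 0.11 and a median of -0.02 over all genes. No member passed the limma test on 12 or on 10 libraries, nor did any of all genes (0%), and the smallest adjusted p was 0.825 on 12 libraries and 0.125 on 10. At an unadjusted p under 0.05, 0 members and 4% of all genes passed on 12 libraries, counted in either direction. On 10 libraries 4 members, or 11.1%, and 26.2% of all genes passed, again in either direction. The 4 members were all higher. The 100 µM libraries all lay above the 20 µM libraries for 7 members, or 19.4%, against 12.7% of all genes. The 7 were Pcna, Rfc2, Mcm7, Gins4, Cdc45, Rfc3 and Prim2. They lay below for 1 member, Pola1, against 15.6% of all genes. Without HOCl 20 µM replicate 1 the median was 0.06, and 7 members lay above and 4 below, against 14.5% and 18.5% of all genes. This comparison and the one with HBSS share the 100 µM libraries, so their directions are not independent of each other.

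Pcna and Rfc2 had the largest differences among the members whose libraries were separate between the doses. Pcna was at 251, 279 and 266 FPKM at 100 µM, against 211, 234 and 242 FPKM at 20 µM, a log2 difference of 0.21 ± 0.11 (SE; limma adjusted p = 0.825). Rfc2 was at 13.7, 15.3 and 14.4 FPKM at 100 µM, against 11.5, 12.5 and 13.1 FPKM at 20 µM. Its log2 difference was 0.21 ± 0.15 (SE), with a limma adjusted p of 0.825. In both genes the lowest 100 µM library was only slightly above the highest 20 µM library. Mcm7 was at 39.3, 42.3 and 42.8 FPKM at 100 µM, against 32.4, 36.7 and 38.8 FPKM at 20 µM. Gins4 was at 36.6, 41.3 and 40.8 FPKM at 100 µM, against 34.6, 36.5 and 35.8 FPKM at 20 µM. These 2 groups nearly touched in both genes. Pola1 was at 12.2, 12.3 and 12.5 FPKM at 100 µM, against 13.2, 13.4 and 13.1 FPKM at 20 µM. Its log2 difference of -0.10 turned to 0.02 with the trend on exon length removed.

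The hour in HBSS was compared with an hour in cell media, the change of solution that all HOCl groups shared. Replication genes were mostly higher in HBSS: the mean was higher in 29 of 36 members, against 61.2% of all genes, and the median log2 difference was 0.26, or 19.6% on the scale of FPKM + 1. The median over all genes was 0.10. No member passed the limma test, at a smallest adjusted p of 0.0711, while 2 genes passed over all (0.0166%). The replicate number was not part of this model. With it as a block on 12 libraries, 6 of 36 members and 193 of 12026 genes passed. The data did not settle whether these numbers pair the libraries. At an unadjusted p under 0.05, 17 members were higher and 1 lower, against 24.9% and 15.1% of all genes. The HBSS libraries all lay above the cell media libraries for 12 members, or 33.3%, against 12.7% of all genes, and below for 0, against 8.91%. Without HBSS replicate 1 the first of these counts was 24, against 20.8% of all genes. Without cell media replicate 3 the test called 19 of 36 members and 7852 of 12026 genes, a smaller share of the members than of all genes. In that fit cell media replicates 1 and 2 alone stood for their group.

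Against cell media replicate 3 alone, the library whose ribosomal share was like that of the other groups, the direction was the same. Members were higher in HBSS in 35 of 36, with a median log2 difference of 0.19, against -0.01 over all genes, and Gins4 was the exception. No member passed limma on these 10 libraries, with a lone library assumed to vary like the other groups, at a smallest adjusted p of 0.644, and 0% of all genes passed. Every HBSS library lay above cell media replicate 3 for 23 of 36 members, against 25.6% of all genes, and below for 0, against 33.3%. That library also lay below all 9 libraries of HBSS and HOCl for 23 members, against 17.5% of all genes. The summed level of the 36 genes was 1112, 1320 and 1326 FPKM in HBSS, against 952, 1221 and 1063 FPKM in cell media. As a share of all FPKM it was 0.356%, 0.416% and 0.425% in HBSS, against 0.245%, 0.315% and 0.343% in cell media. The total FPKM was larger in cell media replicates 1 and 2, and it includes their high ribosomal share.

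Members of several roles had the largest differences between HBSS and cell media. Rrm1 was at 29.3, 36.7 and 35.8 FPKM in HBSS, against 14.0, 18.5 and 28.1 FPKM in cell media. Its log2 difference was 0.77 ± 0.19 (SE), with a limma adjusted p of 0.0711. Orc1 was at 6.27, 7.87 and 8.06 FPKM in HBSS, against 3.12, 3.95 and 5.37 FPKM in cell media, a log2 difference of 0.72 ± 0.15 (SE; limma adjusted p = 0.0711). The groups were separate in both genes, and cell media replicate 3 lay nearest to HBSS. Mcm10 was at 10.4, 13.4 and 13.3 FPKM in HBSS, against 5.43, 6.77 and 9.50 FPKM in cell media. Rfc1 was at 16.3, 18.0 and 17.7 FPKM in HBSS, against 8.84, 8.43 and 15.1 FPKM in cell media. The log2 differences of these 4 genes against cell media replicate 3 alone were smaller, at 0.26 for Rrm1, 0.39 for Orc1, 0.34 for Mcm10 and 0.18 for Rfc1.

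Others of the set went the other way in cell media replicates 1 or 2. Cdt1 was at 36.3, 38.3 and 39.0 FPKM in HBSS, against 48.6, 51.7 and 37.0 FPKM in cell media. Tk1 was at 15.7, 20.0 and 19.4 FPKM in HBSS, against 18.6, 33.9 and 16.0 FPKM in cell media. Gins2 was at 6.09, 7.60 and 7.44 FPKM in HBSS, against 7.12, 12.9 and 5.67 FPKM in cell media. In Tk1 and Gins2 it was cell media replicate 2 that stood high, and in Cdt1 replicates 1 and 2. The log2 differences of -0.25 for Cdt1, -0.23 for Tk1 and -0.18 for Gins2 turned to 0.03, 0.18 and 0.27 against cell media replicate 3 alone. Cell media replicate 1 lay below all 9 libraries of HBSS and HOCl for 28 members and above for 1, against 47.2% and 23.5% of all genes. For replicate 2 the counts were 17 and 9, against 44.2% and 27.7%.

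Exon length moved with the levels in those 2 libraries. Among the longer 18 members the median deviation from the HBSS mean was -0.61 and -0.25 in cell media replicates 1 and 2, and among the shorter 18 it was -0.48 and -0.05. Over all genes tested the corresponding medians were -0.34 and -0.36 for the longer genes and 0.02 and 0.12 for the shorter ones. In cell media replicate 3 the longer and shorter members were at -0.19 and -0.19. The part of exon length and of the ribosomal share in the difference between HBSS and cell media was not tested.

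**Figure D5:**
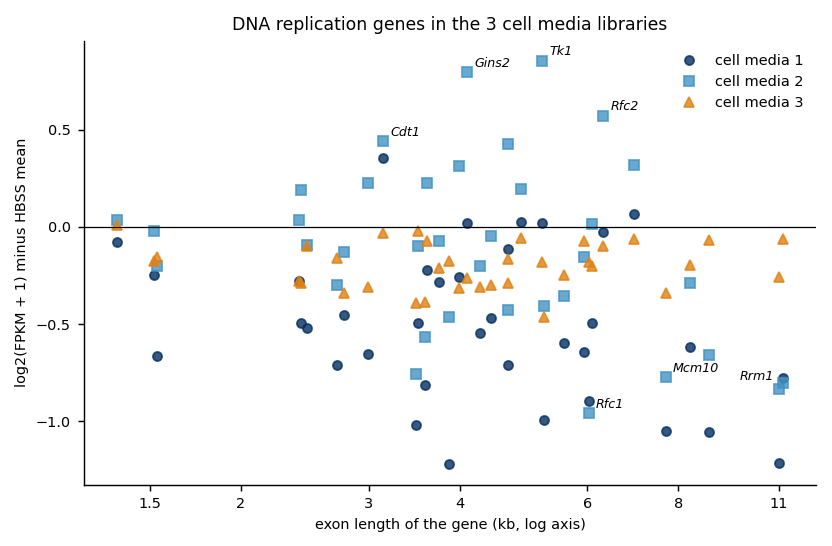
Each point is a replication gene in a cell media library, with its exon length in kb on a log axis and its log2(FPKM + 1) minus the mean of HBSS on the vertical axis. Replicates 1 and 2 spread from below -0.5 to above 0.3 and lie lower among the longer genes, whereas replicate 3 stays within a narrow band mostly under 0.

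Other genes of the same pathway were counted from fixed lists. At 100 µM against HBSS, 0 genes of any list passed the limma test on 12 or on 10 libraries, where 0% and 0.241% of all genes passed. Of all genes tested, 48.5% were higher. Of 15 licensing and origin factors outside the 36, 7 were higher, with a median log2 difference of -0.05. Of 21 further polymerase, fork and clamp loader genes tested, 13 were higher, with a median of 0.05. Of 20 genes of nucleotide supply and chromatin assembly, 13 were higher, with a median of 0.11 that came to 0.03 without HBSS replicate 1. The lists were not tested against each other. Examples of the licensing list lay on both sides of HBSS. Gmnn, the inhibitor of Cdt1, averaged 37.9 ± 3.05 FPKM at 100 µM and 31.7 ± 3.54 FPKM in HBSS, a limma adjusted p of 0.661 (SD, n = 3 each). Recql4, a helicase needed to start replication, averaged 9.37 ± 1.43 FPKM at 100 µM and 11.9 ± 1.28 FPKM in HBSS, a limma adjusted p of 0.629 (SD, n = 3 each).

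Genes that control the cell cycle or answer DNA damage were counted in the same way. Of 26 E2F, cyclin and S-phase control genes tested, 12 were higher with a median of -0.03. The 100 µM libraries lay wholly above HBSS for 5 and wholly below for 3, against 16.5% and 17.6% of all genes. Of 20 genes of G2 and mitosis, 13 were higher with a median of 0.04. Of 17 genes of replication stress and DNA damage tested, 4 were higher and 13 lower, with a median of -0.08. Cdkn1b, the cyclin-dependent kinase inhibitor p27, averaged 10.1 ± 1.19 FPKM at 100 µM and 14.3 ± 0.97 FPKM in HBSS (SD, n = 3 each), with separate groups and a limma adjusted p of 0.572 on 12 libraries and 0.0514 on 10. Skp2, the ubiquitin ligase subunit that targets p27, averaged 6.28 ± 0.13 FPKM at 100 µM and 8.23 ± 0.60 FPKM in HBSS (SD, n = 3 each; limma adjusted p = 0.625 on 12 libraries and 0.0514 on 10). Ccnd1, cyclin D1, averaged 72.6 ± 3.29 FPKM at 100 µM and 60.9 ± 8.79 FPKM in HBSS (SD, n = 3 each), again with separate groups but in the other direction (limma adjusted p = 0.655 on 12 libraries and 0.148 on 10). Ccng1, a p53 target, averaged 68.5 ± 2.38 FPKM at 100 µM and 54.6 ± 3.32 FPKM in HBSS (SD, n = 3 each), and Bbc3, another p53 target that promotes apoptosis, 7.08 ± 0.65 FPKM at 100 µM and 10.0 ± 0.49 FPKM in HBSS. These 2 targets of p53 thus lay on opposite sides of HBSS, each with groups that did not overlap and with limma adjusted p of 0.625 on 12 libraries.

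Between HBSS and cell media 0 genes of the lists passed the test, and 61.2% of all genes tested had higher means in HBSS. Of the list of G2 and mitosis, 12 of 20 were higher. All 15 licensing and origin factors outside the members had higher means in HBSS, with a median of 0.39 that was -0.01 against cell media replicate 3 alone. The medians against that library alone were 0.10 for the polymerase and fork genes, 0.17 for nucleotide supply and chromatin assembly, 0.08 for E2F and cyclin genes, 0.07 for G2 and mitosis genes and 0.03 for DNA damage genes. The 36 members, at 0.19, were the highest of these 7 medians against that library alone. On all 12 libraries they were not, with a median of 0.26. The medians there were 0.46 for DNA damage genes, 0.31 for G2 and mitosis genes and 0.29 for polymerase and fork genes. For nucleotide supply and chromatin assembly the median was 0.26, and for E2F and cyclin genes 0.22. The difference between the lists was not tested.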

How the data were processed

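Libraries of 12 samples in 4 groups of 3 were analysed from a table of FPKM that the authors deposited, made with HISAT2 and featureCounts on GRCm39 per the submitters' processing notes; the sources used here give no versions or strand settings. GENCODE M21, which is on another build, gave symbols, exon lengths and GC content. Its exon positions were used to find members that overlap other genes. Promoter windows came from RefSeq (GRCm38.p6). Values were log2(FPKM + 1). Genes with at least 1 FPKM in at least 3 libraries were tested with limma 3.58.1 (R 4.3.3), all 12 libraries in 1 model with 1 mean per group and a mean-variance trend, two-sided, with Benjamini-Hochberg adjusted p under 0.05. With 3 libraries against 3, a permutation test could not go below 0.1 and was not used. FPKM times exon length gave whole reads within 0.01 for 98.26% of values below 1 FPKM, which gave the depth and 1 alternative test. The 36 members, the lists and the rule for naming genes (representatives of each role, the 4 largest separate differences per comparison and up to 3 genes per list by p) were chosen with earlier results of these data known. Python 3.11.15 drew the figures.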

Additional observations from a re-analysis of the deposited data

How the results depend on the processing

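Over 29 alternatives, 1022 of 1102 values of the 38 named differences kept their direction and side of the threshold. Of the others, 57 kept their direction and passed the limma adjusted p under 0.05, and 23 turned direction. All medians of the 36 members moved by less than 1 SD. That SD is pooled from the library medians of the 2 groups compared, with HBSS replicate 1 included, and is a wide limit. Without HBSS replicate 1 the median against HBSS went from 0.12 to 0.03 at 100 µM and from 0.03 to -0.05 at 20 µM. With 3 libraries a group, the 95% intervals of the members at 100 µM against HBSS reached 0.76, and depth was at least 128 reads for a member in a library. The counts of called genes were the least stable values, and the cause was not tested.

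At 100 µM against HBSS the count over all genes, 0 as reported, was 1 with no filter, 2 with the 2 groups alone, 29 on 10 libraries and 3067 with library weights (3 members), and 0 to 5 on leaving out each library, the 5 without cell media replicate 3. At 20 µM against HBSS it was 6 with no filter. At 100 µM against 20 µM it was 11 with no filter, 1 with the 2 groups alone and 4677 with library weights (7 members), and 0 to 1 on leaving out each library, the 1 without HBSS replicate 3. For HBSS against cell media, 2 as reported, it was 1 at a pseudocount of 0.5 and at a mean of at least 5 FPKM, 5 with no filter and with no mean-variance trend, 4 with quantile normalization and with limma-voom on recovered reads, 0 with the 2 groups alone and on 10 libraries, 18 after removing the exon length trend, 14 after removing the GC trend, 6889 with library weights (19 members) and 0 to 7852 on leaving out each library. Members called there were 0 to 19 of 36 on leaving out each library, 19 without cell media replicate 3, where 7852 of 12026 genes were called. The counts with library weights are likewise out of 12026 genes and 36 members. In each comparison where library weights led to calls, the share called was smaller for the members than for all genes.

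Members' medians on leaving out each library ranged from 0.03 to 0.17 for 100 µM against HBSS, -0.05 to 0.08 for 20 µM against HBSS, 0.06 to 0.15 for 100 µM against 20 µM and 0.13 to 0.39 for HBSS against cell media. Differences at 100 µM against HBSS that turned were those of Pola1, Pole, Mcm2, Mcm4, Mcm6 and Cdt1. Pola1 was at 0.042 without the exon length trend and 0.016 without the GC trend, and Pole at 0.076 without the exon length trend. Mcm2 was at -0.032 with quantile normalization, -0.0038 with library weights and -0.0099 to 0.073 on leaving out each library. Mcm6 was at -0.028 with quantile normalization. On leaving out each library Mcm4 ranged from -0.012 to 0.20 and Cdt1 from -0.072 to 0.0058. Pola1 at 100 µM against 20 µM turned to 0.019 without the exon length trend. Orc1 at 20 µM against HBSS ranged from -0.17 to 0.0033 on leaving out each library. For HBSS against cell media, Cdt1, Tk1 and Gins2 turned on 10 libraries (0.032, 0.18 and 0.27). On leaving out each library Tk1 (-0.44 to 0.081) and Gins2 (-0.41 to 0.12) turned there too. Members wholly above cell media were 24 without HBSS replicate 1, a choice made after seeing the data.

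The data did not settle whether replicate numbers pair the samples. Deviations of same-numbered libraries correlated between -0.417 and 0.414, over 0.1 in 7 of 18 pairs. Among HBSS and HOCl libraries this was 5 of 9 pairs, from -0.062 to 0.414. Of the 12 libraries, 6 correlated best with their own number. The counts that follow are out of 36 members and 12026 genes, or 11895 genes where a trend was removed. With the replicate number as a block on 10 libraries, 2979 genes (10 members) were called at 100 µM against HBSS, 2088 (5 members) at 100 µM against 20 µM and 0 for HBSS against cell media, where Cdt1, Tk1 and Gins2 were at 0.064, 0.28 and 0.32. With the block on 12 libraries, HBSS against cell media had 193 genes (6 members), 949 (11) without the exon length trend and 624 (10) without the GC trend. For HBSS against cell media with this block on 12 libraries, the share called was larger for the members than for all genes. The block without the exon length trend left Pola1 at 0.042 and Pole at 0.076 for 100 µM against HBSS and Pola1 at 0.019 for 100 µM against 20 µM, and without the GC trend Pola1 was at 0.016.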
